A study of Mus musculus with 15 samples.

Results

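The genes of the complement system and of blood coagulation were followed in mouse liver as a set of 40 genes. They were chosen by name, with earlier results of these data known. Of these, 39 were among the 16330 genes of the deposited table: 18 of the 19 complement genes and all 21 coagulation genes. C1s1, a protease of the classical pathway, had no row under that name. A row called C1s, which RefSeq gives as a synonym of C1s1, was kept outside the set and did not pass the test in any comparison. The 15 RNA-seq libraries fell into 4 groups by the construct named in the labels and by the gavage, each sampled at 6 h: LbNOX with ethanol (3 libraries, M13 to M15), LbNOX with water (4, M6 to M9), luciferase with ethanol (3, M10 to M12) and luciferase with water (5, M1 to M5). LbNOX is a bacterial enzyme that oxidises NADH with oxygen, and luciferase is its control. The comparison of the groups asks how ethanol acts on hepatic gene expression with and without this enzyme. The series' design text also speaks of ChREBP animals, whereas the titles and the header of the table give luciferase and LbNOX. The titles were followed, and whether any group carried a ChREBP allele is not settled here. Strain, age, ethanol dose and the way in which the constructs were delivered are not given in the sources used here, and transcripts of the constructs were not analysed.

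Complement is a system of plasma proteins that marks and lyses microbes. The classical and lectin pathways begin with recognition of antibody or sugars, the alternative pathway amplifies, and all lead to cleavage of C3 and then to a membrane pore built by the terminal components. Coagulation is a chain of proteases: tissue factor with factor VII begins it, the contact and intrinsic factors amplify it, and factor X and prothrombin lead to fibrin, while protein S, protein C, antithrombin and plasmin hold it in check. Hepatocytes make most of these proteins and secrete them into plasma.

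Promoters are shown for F7, which encodes factor VII and was the member that passed the test, for its neighbour F10, which encodes factor X, and for Fga, Fgb and Fgg, which encode the chains of fibrinogen and lie in a cluster. F7 ends 1498 bases before F10 begins on chromosome 8. On chromosome 3, Fgg lies 11026 bases from Fga, and Fga 6513 bases from Fgb. Each sequence runs from 250 bases before to 50 bases after the start site, on the strand of the gene, from RefSeq on GRCm38.p6. The windows are chr8:13025784-13026083 (plus strand) for F7, chr8:13037058-13037357 (plus strand) for F10 and chr3:83025903-83026202 (plus strand) for Fga. Those of the other fibrinogen genes are chr3:83049814-83050113 (minus strand) for Fgb and chr3:83007474-83007773 (plus strand) for Fgg. Capitals mark TGACCTTTG in F7, AGGTCA in F10 and Fgg, and GTTAAT in Fga and Fgb. In F10, Fga and Fgb the motif stands on the other strand, so its reverse complement is what reads in capitals.
F7: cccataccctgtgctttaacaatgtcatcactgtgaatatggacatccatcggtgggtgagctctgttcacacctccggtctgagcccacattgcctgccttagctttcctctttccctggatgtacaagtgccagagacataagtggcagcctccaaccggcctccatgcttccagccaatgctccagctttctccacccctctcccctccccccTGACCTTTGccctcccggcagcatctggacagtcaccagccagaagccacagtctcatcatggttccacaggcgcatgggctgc
F10: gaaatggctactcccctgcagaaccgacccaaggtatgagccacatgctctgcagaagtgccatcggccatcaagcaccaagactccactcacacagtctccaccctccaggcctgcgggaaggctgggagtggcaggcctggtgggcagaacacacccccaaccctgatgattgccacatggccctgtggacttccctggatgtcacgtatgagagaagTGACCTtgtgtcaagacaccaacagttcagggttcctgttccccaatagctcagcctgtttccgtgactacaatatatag
Fga: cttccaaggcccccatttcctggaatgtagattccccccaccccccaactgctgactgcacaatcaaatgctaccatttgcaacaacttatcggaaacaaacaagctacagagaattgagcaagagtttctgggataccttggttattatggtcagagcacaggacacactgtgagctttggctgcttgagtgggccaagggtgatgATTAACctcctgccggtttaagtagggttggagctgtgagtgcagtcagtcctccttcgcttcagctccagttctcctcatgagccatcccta
Fgb: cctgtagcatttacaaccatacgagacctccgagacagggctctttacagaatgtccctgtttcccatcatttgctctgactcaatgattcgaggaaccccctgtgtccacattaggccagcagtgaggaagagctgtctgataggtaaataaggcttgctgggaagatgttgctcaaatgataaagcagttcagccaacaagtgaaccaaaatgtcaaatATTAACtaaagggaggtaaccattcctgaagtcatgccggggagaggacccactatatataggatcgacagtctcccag
Fgg: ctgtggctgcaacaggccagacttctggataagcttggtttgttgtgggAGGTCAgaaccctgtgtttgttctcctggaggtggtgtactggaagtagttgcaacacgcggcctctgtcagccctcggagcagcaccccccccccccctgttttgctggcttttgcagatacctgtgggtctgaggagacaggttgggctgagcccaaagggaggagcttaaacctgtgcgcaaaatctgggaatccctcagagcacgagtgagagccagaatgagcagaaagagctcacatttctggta

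These motifs were searched on both strands of all 32851 promoter windows of 300 bases and of the 30 members that had one. Shares over all promoters count windows, whereas members are counted as genes, with a match in any window of the gene. TGACCTTTG, letters found in sites of the liver factor HNF4, was present in 0.478% of all promoters and in F7 and F9 among the members. In F7 it began 34 bases and ended 26 bases before the start. AGGTCA, a nuclear receptor core site whose reverse complement is contained in TGACCTTTG, was present in 16.3% of all promoters and in 12 of the 30 members. F10 held it 30 to 25 bases before the start and Fgg 201 to 196 bases before. GTTAAT, letters of the sites of the liver factor HNF1, was present in 7.10% of all promoters and in 10 of the 30 members. It lay 43 to 38 bases before the start of Fga and 29 to 24 bases before that of Fgb. TTCNNNGAA, the form of a STAT site, was in 8.30% of all promoters and in 8 members, Fga and Fgb among them. The E-box CACGTG was in 7.15% of all promoters, and its letters were in 0 of the 30 members. These are matches of letters and not measured binding.

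Sequencing depth was 10.6 to 15.7 M reads for LbNOX ethanol and 13.7 to 20.6 M for LbNOX water. Those of luciferase held 12.2 to 14.4 M after ethanol and 14.5 to 23.7 M after water. Of the 12 hepatocyte markers, 11 were listed, and their summed normalized counts were 656188 to 1215915 per library, against at most 4311 for 8 endothelial markers and 4200 for 9 Kupffer cell markers. Whether each library was a separate animal is not given in the labels, so a p-value here reflects how far these libraries spread, which may be technical. M3 (luciferase water), M8 (LbNOX water) and M15 (LbNOX ethanol) deviated together. Over 9506 genes, their deviations from their own group means had r of 0.59 for M3 and M8, 0.38 for M3 and M15 and 0.36 for M8 and M15. M5 (luciferase water), M9 (LbNOX water) and M14 (LbNOX ethanol) also deviated together. Their r was 0.51 for M5 and M9, 0.39 for M9 and M14 and 0.39 for M5 and M14. Between these sets r was below 0, as for M5 and M8 at -0.44. M5, M9 and M14 were left out singly and not as a set. Of 38 members, 13 lay below and 3 above the group mean in all of M3, M8 and M15. The matching share over all genes was not computed, so these counts do not set the members apart from other genes. Some of the results are also given without M3, M8 and M15, and others are not. The mean deviation of M3, M8 and M15 was -0.67 (log2) for C8g, -0.50 for Masp2 and -0.36 for F7, and 0.75 for Cd55. Across the 38 members it had a Spearman rho of -0.44 with the GC content of the transcript and of 0.30 with its length, and over 9002 genes the values were -0.18 and 0.45. The part of GC content and length in the results was not tested. M3, M8 and M15 were each the highest of their group in summed Kupffer cell markers (4200, 3546 and 2919 in that order). So they were in endothelial markers (3900, 4311 and 3542), and in stellate cell, cholangiocyte and platelet markers. This did not hold for hepatocyte, neutrophil, red blood cell, T and NK cell, or B and plasma cell markers. The part of cell types in the results was not tested.

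Levels are normalized counts, the unit of the table, and between genes they are compared only per kilobase of the gene's longest protein-coding transcript. The order below rests on this scale and its choice of transcript. On that scale the fibrinogen chain Fga stood highest with a mean of 16844 over all libraries, followed by C3, the protein on which the complement pathways converge, with 15463, and by Fgg with 14339. Vtn (vitronectin), Mbl2 (a mannose-binding lectin), Fgb, F2 (prothrombin) and Plg (plasminogen) came next, between 8772 and 11738 per kilobase. F10 ranked 21 of 39 with 1984 per kilobase, and F7 ranked 32 with 478. Lowest were Klkb1 (plasma prekallikrein) with 75.2, Cd55 (a membrane inhibitor of complement) with 53.6 and Masp1 (a protease of the lectin pathway) with 21.2. Proc (protein C) is not placed in this order, since 9 of its 15 listed values are 0. The complement members together took 1.08% to 1.21% of reads in LbNOX ethanol, 1.19% to 1.29% in LbNOX water, 0.991% to 1.18% in luciferase ethanol and 1.13% to 1.41% in luciferase water libraries. The coagulation members took 1.33% to 1.45% of reads in LbNOX ethanol, 1.26% to 1.45% in LbNOX water, 1.29% to 1.76% in luciferase ethanol and 1.10% to 1.72% in luciferase water libraries. For coagulation these ranges overlapped between all groups. For complement, all LbNOX water libraries lay above all luciferase ethanol libraries, a pair that differs in both construct and gavage, and the other pairs of groups overlapped. C4b, C1ra and Kng1 have near copies in the mouse genome, so their counts may hold reads of the copy.

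**Figure D1:**
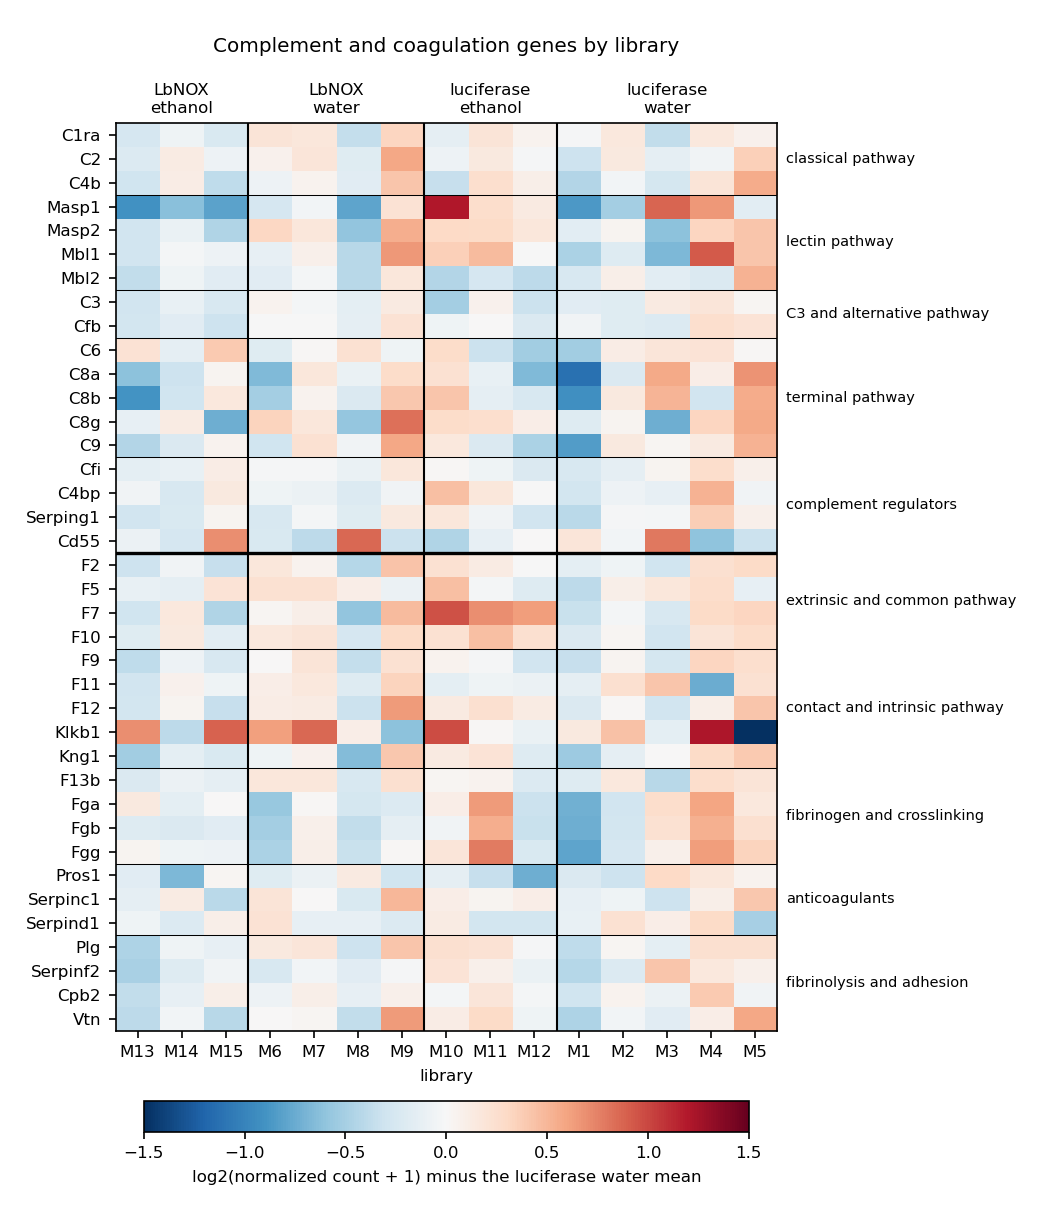
Level of 38 members in each of the 15 libraries as log2(normalized count + 1) minus the luciferase water mean, with rows ordered by role and columns by group (red higher, blue lower). F7 is red in all luciferase ethanol libraries, and few other rows have a shade that a whole group shares; Proc, listed at 0 in 9 libraries, is not drawn.

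Proc, which encodes the anticoagulant protease protein C, could not be compared. It was listed at 0 in M13, M14 and M15 of LbNOX ethanol. In LbNOX water it was 70.7 in M6, 23.1 in M8 and 0 in M7 and M9. In luciferase ethanol it was 30.3 in M10 and in M11 and 0 in M12, and in luciferase water 90.5 in M1, 23.6 in M2 and 0 in M3, M4 and M5. The other 38 members were above 0 in every library, so the zeros tell only how the table lists Proc. It stays in the counts of tests, where it did not pass.

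In luciferase livers, most complement and coagulation mRNAs were not told apart between ethanol and water, and F7 lay farthest from its water level. F7 was 1518, 1278 and 1211 normalized counts after ethanol, against 622, 772, 663, 958 and 980 after water. Every ethanol library lay above every water library, with means of 1336 ± 161 after ethanol (SD, n = 3) and 799 ± 165 after water (SD, n = 5). The log2 difference was 0.76 (SE 0.22, 95% interval 0.28 to 1.23), and its adjusted p = 0.0506 by limma, over all genes tested, missed the threshold of 0.05. By limma 0 of the 39 members passed, against 7.75% of the 13570 genes tested. At an unadjusted p under 0.05 there were 2, F7 and Pros1, where 21.1% of all genes lay. On the recovered reads, edgeR and DESeq2 each called 1 member, F7, with an adjusted p = 0.0493 by edgeR and 0.0168 by DESeq2. The limma call also appeared when M4, M5, M8, M9 or M14 was left out, with adjusted p of 0.0395, 0.0414, 0.0225, 0.0361 and 0.0487 in that order, and its adjusted p was 0.0424 without M3, M8 and M15. M8, M9 and M14 are LbNOX libraries, and without each the log2 difference itself stayed at 0.76. Without any other single library the limma adjusted p was higher, from 0.0554 without M15 to 0.209 without M10. It was 0.110 without M1 or M11, 0.0897 without M2, 0.0983 without M3 and 0.0978 without M12. In bulk tissue, fewer cells of a type and less RNA per cell cannot be told apart. Of the markers tested, 4 of 5 for cholangiocytes lay above 0 (median 1.61, 0 passing by limma, 3 at an unadjusted p under 0.05). For T and NK cells 7 of 8 lay below 0 (median -0.92, 1 passing, 4 at that level). Below 0 were also 7 of 8 endothelial markers (median -0.41, 0 passing, 3 at that level) and 7 of 8 Kupffer cell markers (-0.41, 0 and 0). All 5 red blood cell markers tested lay below 0 (median -0.43, 0 and 0). Of 11 hepatocyte markers, 8 lay above 0 (median 0.10, 0 and 1). The part of these cells was not tested.

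**Figure D2:**
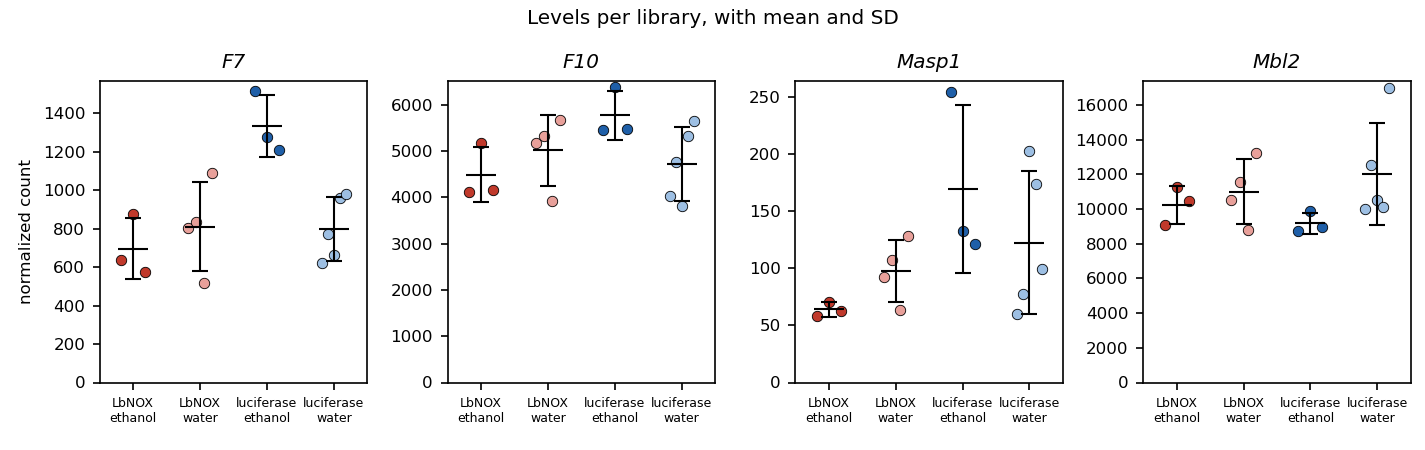
Normalized counts of F7, F10, Masp1 and Mbl2 in every library by group, with group mean and SD (n = 3, 4, 3 and 5 from left to right). The luciferase ethanol libraries of F7, at 1211 to 1518, lie above all others, the highest of which is 1089.

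Among the other coagulation members, F10 was 5456, 6390 and 5491 normalized counts after ethanol and 4022, 4759, 3809, 5329 and 5661 after water in luciferase livers. The groups overlapped (log2 difference 0.31, limma adjusted p = 0.295). F12, the contact factor XII, was 6033, 6493 and 5996 after ethanol, against 4708, 5536, 4483, 5812 and 7332 after water (log2 difference 0.17, adjusted p = 0.700). The ethanol libraries of F12 lay within the range of the water libraries. Pros1, which encodes protein S, the cofactor of protein C, was 1082, 935 and 715 after ethanol, against 1018, 959, 1460, 1337 and 1233 after water. These overlapped too, with a log2 difference of -0.40 (adjusted p = 0.235). Plg, the precursor of plasmin, was 27823, 27535 and 23371 after ethanol, against 18182, 24169, 21365, 27857 and 27979 after water (log2 difference 0.15, adjusted p = 0.721). Fgg was 27426, 41398 and 20541 after ethanol, against 13976, 20305, 25458, 37298 and 30483 after water, a log2 difference of 0.24 (adjusted p = 0.700) that became -0.02 when M11 was left out. Both genes overlapped between the groups. With 1 library left out, Plg ran from 0.0547 without M1 to 0.23 without M12, F12 from 0.0960 without M3 to 0.27 without M5, and Pros1 reached -0.24 without M12. Across all 21 coagulation members the median log2 difference was 0.08, and 16 lay above 0; the median ran from -0.0216 without M1 to 0.190 without M12, and was 0.0059 after quantile normalization, where 18 of the 39 members lay above the median of all genes, against 24 before it.

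Complement members of luciferase livers gave no call after ethanol. Mbl2, a lectin that starts the lectin pathway, was 8718, 9877 and 8951 normalized counts after ethanol, against 10008, 12551, 10520, 10113 and 16969 after water. All ethanol libraries lay below all water libraries, with a log2 difference of -0.36 (SE 0.18, limma adjusted p = 0.269), or -0.23 without M5, the highest water library. Mbl2 and F7 were the 2 of 39 members whose groups did not overlap, against 14.7% of all genes. C3 was 58998, 87650 and 67276 after ethanol, against 74949, 74157, 91902, 95366 and 86004 after water (log2 difference -0.26, adjusted p = 0.381), and the groups overlapped. C6, a terminal component, was 5387, 3562 and 3115 after ethanol, against 3111, 4828, 5080, 5148 and 4506 after water (log2 difference -0.19, adjusted p = 0.663). C4bp, a soluble inhibitor of C4, was 12160, 10005 and 8856 after ethanol, against 7336, 8394, 8162, 12703 and 8566 after water (log2 difference 0.21, adjusted p = 0.532). C6 and C4bp overlapped between the groups. With 1 library left out, C6 ran from -0.42 without M10 to -0.0268 without M12, C4bp from 0.0869 without M10 to 0.34 without M4, and C3 from -0.42 without M11 to -0.13 without M10. C1ra, a protease of the classical pathway, had a log2 difference of 0.04 (adjusted p = 0.929), a value whose sign turned under other scalings. The median over the 18 complement members was -0.03, beside 0.01 over all genes; with 1 library left out it ran from -0.13 without M1 to 0.0336 without M12, and after quantile normalization it was -0.13. The 95% intervals lay within 1 log2 unit of 0 for 35 of the 39 members.

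In LbNOX livers no member was told apart between ethanol and water. By limma 0 of 39 passed, against 0.00737% of all genes, and 0 had an unadjusted p under 0.05, where 11.6% of all genes lay. The tests of edgeR and DESeq2 on recovered reads also called 0. Cfb, factor B of the alternative pathway, was 12306, 13199 and 12046 normalized counts after ethanol, against 14820, 14760, 13603 and 17232 after water. Its ethanol libraries all lay below its water libraries, with a log2 difference of -0.27 (SE 0.14, limma adjusted p = 0.492), and it was the 1 member of 39 without overlap, against 10.9% of all genes. Plg was 17165, 22545 and 21589 after ethanol, against 26085, 26675, 19055 and 31377 after water (log2 difference -0.32, adjusted p = 0.546). F12 was 4525, 5647 and 4324 after ethanol, against 5912, 5990, 4372 and 8571 after water (log2 difference -0.33, adjusted p = 0.563). Plg and F12 overlapped through M8, the lowest water library of both in this group. F12 was -0.16 without M9, and Plg -0.20 without M13.

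F7 itself was 639, 876 and 574 normalized counts after ethanol, against 801, 832, 520 and 1089 after water in LbNOX livers, and the groups overlapped (log2 difference -0.19, SE 0.23, limma adjusted p = 0.779). Differences below 0 outnumbered those above: 32 of 39 members lay below 0 and 7 above, with medians of -0.22 for complement and -0.19 for coagulation, beside -0.00 for all genes. With 1 library left out, the complement median ran from -0.32 without M8 to -0.11 without M9 (-0.12 without M13), and the coagulation median from -0.30 without M8 to -0.12 without M13; after quantile normalization they were -0.13 and -0.12. Relative to the median of all genes, 31 of the 39 lay below it, and 28 did after quantile normalization. Of 11 hepatocyte markers tested, 9 lay below 0 and 2 above (median -0.12). The summed hepatocyte markers were 758227, 902901 and 943520 normalized counts after ethanol and 656188 to 1215915 after water. Their part in the complement and coagulation medians was not tested. All 6 neutrophil markers tested lay above 0 (median 1.48, with 0 passing by limma and 3 at an unadjusted p under 0.05), with sums of 181 to 689 after ethanol and 115 to 310 after water. All 5 red blood cell markers tested lay below 0 (median -0.51, with 0 passing and 1 at an unadjusted p under 0.05), with sums of 4856 to 10880 after ethanol and 10685 to 16656 after water. The part of these cells was not tested. Fga, Fgb and Fgg were among those above 0, at 0.26, 0.04 and 0.14. The 95% intervals lay within 1 log2 unit of 0 for 33 of 39 members.

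**Figure D3:**
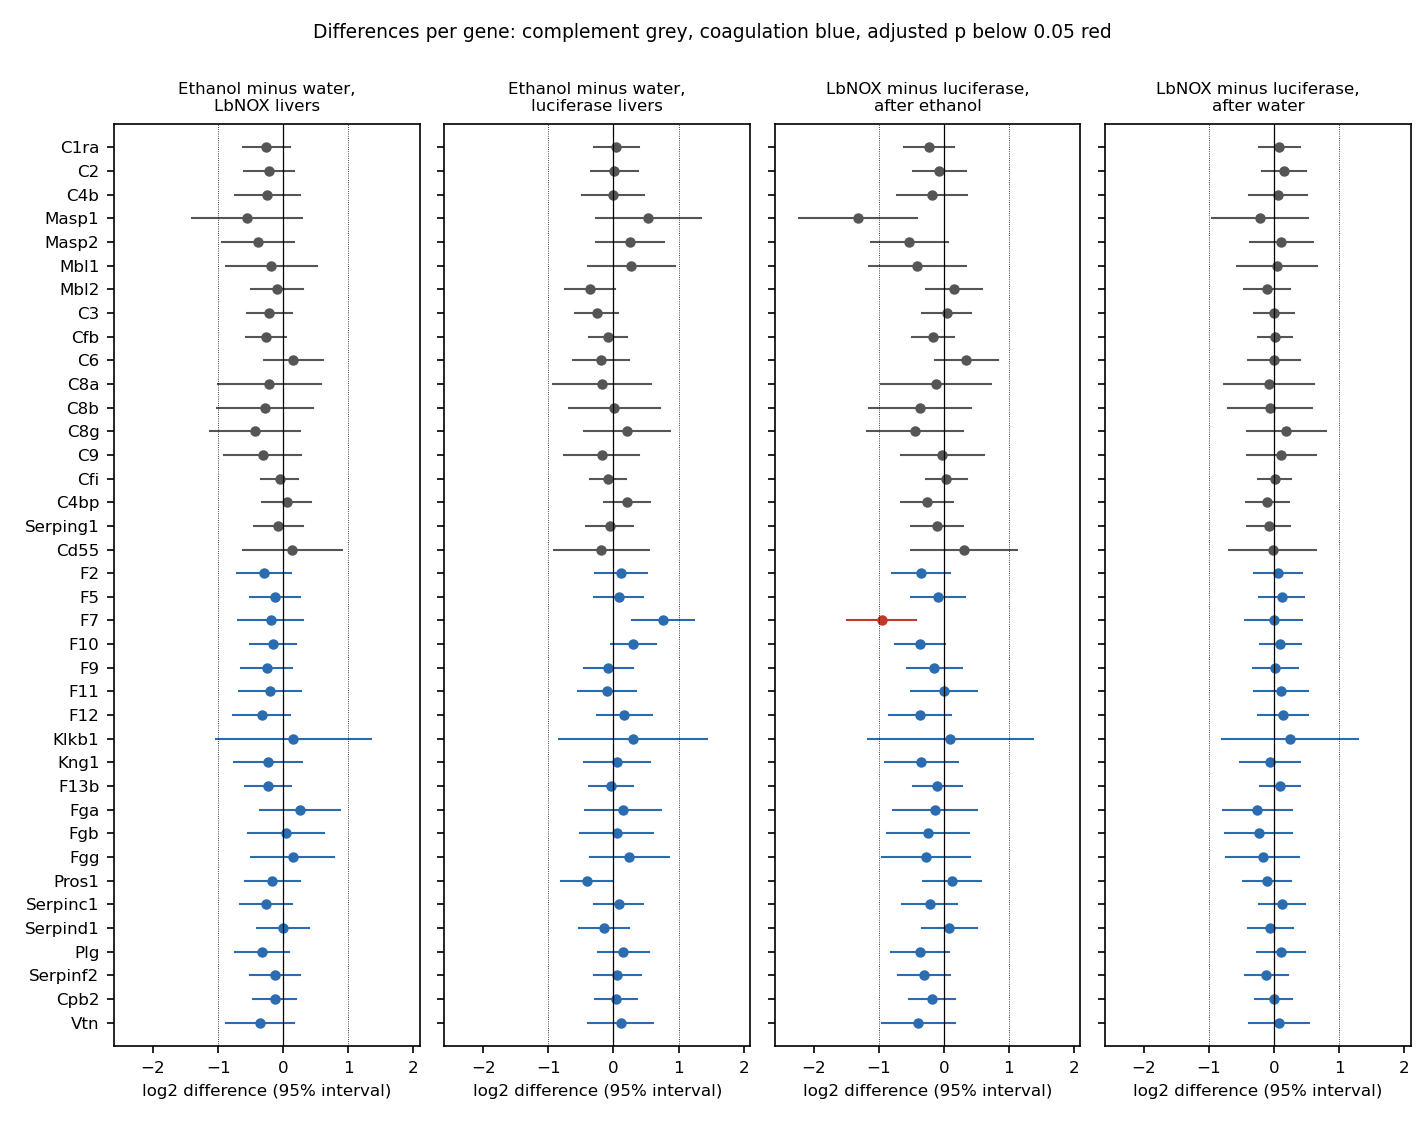
Log2 difference of 38 members with the 95% interval of limma, in the 4 comparisons between groups; dotted lines mark 1 log2 unit and red marks an adjusted p below 0.05. F7 after ethanol, at -0.96, is the red point; in the LbNOX ethanol panel most points lie left of 0 with intervals that include 0.

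After ethanol, LbNOX livers had less F7 mRNA than luciferase livers. F7 was 639, 876 and 574 normalized counts in LbNOX ethanol livers, against 1518, 1278 and 1211 in luciferase ethanol livers. No LbNOX library reached the lowest luciferase library, and the means were 697 ± 159 with LbNOX and 1336 ± 161 with luciferase (SD, n = 3 each). The log2 difference was -0.96 (SE 0.25, 95% interval -1.49 to -0.42), with a limma adjusted p = 0.0358. It was the 1 member of 39 called, against 6.06% of all genes. The adjusted p was 0.0407 by edgeR and 0.00654 by DESeq2. Without M6, M7, M10, M11, M12, M13 or M15 the limma call was lost, with adjusted p of 0.0510, 0.0503, 0.139, 0.0738, 0.0762, 0.113 and 0.145 in that order, and without M3, M8 and M15 it was 0.0620; the log2 difference kept to -1.13 to -0.83 when 1 library was left out. This comparison and that of ethanol against water in luciferase livers use the same luciferase ethanol libraries. Summed hepatocyte markers were 758227 to 943520 in LbNOX ethanol and 907388 to 1105890 in luciferase ethanol livers, and their part in the difference of F7 was not tested.

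Masp1, which encodes proteases of the lectin pathway, was 58.1, 70.8 and 62.9 normalized counts in LbNOX ethanol livers, against 254, 133 and 121 in luciferase ethanol livers. The groups did not overlap, and M10 held the highest value. The log2 difference of -1.31 (SE 0.42) had a limma adjusted p = 0.0849, or 0.0271 by DESeq2, 0.0813 by edgeR and 0.290 by limma without M10. By limma it was 0.116 without M3, M8 and M15. F7 and Masp1 were the 2 members with an unadjusted p under 0.05 in this comparison, where 21% of all genes lay. F10 was 4124, 5176 and 4167 in LbNOX ethanol livers, against 5456, 6390 and 5491 in luciferase ethanol livers, also without overlap (log2 difference -0.37, adjusted p = 0.253). Without overlap and lower in LbNOX ethanol livers were 8 of the 39 members, against 15.4% of all genes lower and 29.6% in either direction. Beside F7, F10 and Masp1 these were Masp2, the other lectin pathway protease (-0.53), Mbl1, a mannose-binding lectin (-0.41), F2 (-0.35), F12 (-0.36) and Plg (-0.37), with adjusted p of 0.287 to 0.545. In all, 30 members lay below 0 and 9 above. The medians were -0.14 for complement and -0.24 for coagulation, beside 0.00 for all genes; after quantile normalization they were 0.0042 and -0.06. With 1 library left out the complement median ran from -0.22 without M12 to -0.06 without M13, and the coagulation median from -0.38 without M12 to -0.15 without M11. Of 11 hepatocyte markers tested, 8 lay below 0 and 3 above (median -0.31), with 0 passing by limma and 1 at an unadjusted p under 0.05. Of 5 cholangiocyte markers, 4 lay below 0 and 1 above (median -1.36), with 0 passing and 2 at an unadjusted p under 0.05. All 8 Kupffer cell and all 6 neutrophil markers tested lay above 0 (medians 0.44 and 0.65) and all 5 red blood cell markers below 0 (median -0.39). Of these, 0 passed by limma, and 0, 1 and 1 had an unadjusted p under 0.05. The part of these cells in the values above was not tested.

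The difference between the ethanol effects, LbNOX minus luciferase, was tested directly. F7 had a value of -0.95 (SE 0.32, 95% interval -1.64 to -0.26) and a limma adjusted p = 0.168, so it missed the threshold. Without M8 the value was -1.15 with a limma adjusted p of 0.0414. Without any other single library F7 did not pass, with adjusted p from 0.116 without M14 to 0.372 without M15. For F7 it was 0.0552 without M3 and M8, and 0.140 without M3, M8 and M15. By limma 0 of 39 members passed, against 1.67% of all genes, and edgeR and DESeq2 also called 0. Only F7 had an unadjusted p under 0.05, where 14.6% of all genes lay. F10 followed with -0.46 (SE 0.23, adjusted p = 0.367) and Masp1 with -1.10 (SE 0.55, adjusted p = 0.370). The median was -0.17 for complement and -0.19 for coagulation, and after quantile normalization they were 0.05 and -0.08. Of 11 hepatocyte markers, 7 lay below 0 and 4 above (median -0.30), and their part was not tested. With 1 library left out the complement median ran from -0.25 without M12 to -0.07 without M1, and the coagulation median from -0.34 without M12 to -0.14. Of the 39 intervals, 25 lay within 1 log2 unit of 0, and the others reach differences of that size.

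After water, no member was told apart between LbNOX and luciferase livers. By limma 0 of 39 passed, against 0% of all genes, 0 had an unadjusted p under 0.05 against 3.24% of all genes, and edgeR and DESeq2 called 0 members. In 0 members did the groups separate, against 0.936% of all genes. F7 was 801, 832, 520 and 1089 normalized counts in LbNOX water livers, against 622, 772, 663, 958 and 980 in luciferase water livers, with a log2 difference of -0.00 (95% interval -0.44 to 0.43). Smallest in p were Fga at -0.26, Fgb at -0.23 and C2, the protease of the C3 convertase, at 0.16, each with a limma adjusted p = 1. Fga was 29294, 43881, 36023 and 37465 in LbNOX water livers, against 26197, 35444, 52197, 65427 and 48198 in luciferase water livers. Fgb was 26522, 39556, 29090 and 34378 in LbNOX water livers, against 22650, 31188, 44151, 54468 and 44434 in luciferase water livers. C2 was 2251, 2433, 1894 and 3213 in LbNOX water livers, against 1734, 2380, 1961, 2069 and 2760 in luciferase water livers. All overlapped. With 1 library left out, Fga ran from -0.44 without M1 to -0.11 without M4, Fgb from -0.42 without M1 to -0.10 without M4, and C2 from 0.0187 without M9 to 0.27 without M8. In all, 37 of 39 intervals lay within 1 log2 unit of 0. All 5 red blood cell markers tested lay below 0 here too (median -0.28), with 0 passing by limma and 0 at an unadjusted p under 0.05. The part of these cells was not tested.

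Genes that act beside the members were read from lists. Of 24 other complement genes tested, 0 passed by limma in any comparison. Their unadjusted p was under 0.05 for 1 gene in luciferase and 2 in LbNOX livers (ethanol against water), for 3 after ethanol and 1 after water (LbNOX against luciferase), and for 1 in the difference. Of 27 other coagulation genes tested, Lman1 and Thbd rose after ethanol in luciferase livers. Lman1, a cargo receptor that carries factors V and VIII out of the endoplasmic reticulum, was 6629, 5046 and 5240 normalized counts after ethanol, against 3058, 3557, 3752, 4071 and 3177 after water (log2 difference 0.68, limma adjusted p = 0.00344). Thbd (thrombomodulin, the endothelial receptor that turns thrombin toward protein C) was 244, 351 and 287 after ethanol, against 90.5, 49.1, 107, 45.7 and 48.0 after water (log2 difference 2.17, adjusted p = 0.0298). Neither gene overlapped between the groups. The call of Thbd was lost without M2, M4, M5, M10, M11 or M12, with adjusted p of 0.0621, 0.0506, 0.0554, 0.0874, 0.103 and 0.0889 in that order, while its log2 difference stayed between 2.04 and 2.36; with CPM scaling (each library scaled to its total reads) the adjusted p was 0.0637.

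In LbNOX livers 0 of these 27 genes passed by limma for ethanol against water, with 4 at an unadjusted p under 0.05. After ethanol, Lman1 was 3147, 3417 and 3212 in LbNOX livers, against 6629, 5046 and 5240 in luciferase livers (log2 difference -0.78, limma adjusted p = 0.00471). The groups did not overlap. The difference of the ethanol effects did not pass for Lman1 (-0.69, limma adjusted p = 0.0669) or Thbd (-0.52, adjusted p = 0.799). F5, the factor V that Lman1 carries as a protein, was 6969, 4982 and 4469 after ethanol, against 3865, 5402, 5723, 6124 and 4676 after water in luciferase livers, and overlapped.

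Of 18 liver transcription factors and receptors, Mlxipl, which encodes ChREBP, rose after ethanol in luciferase livers, and Foxa2, a forkhead factor of hepatocytes, fell. Mlxipl was 6272, 5075 and 6400 normalized counts after ethanol, against 1720, 2071, 1484, 2352 and 3370 after water (log2 difference 1.48, limma adjusted p = 0.00448). Foxa2 was 261, 321 and 264 after ethanol, against 495, 633, 481, 429 and 678 after water (log2 difference -0.93, adjusted p = 0.00795). After ethanol, Mlxipl was 2761, 3527 and 1665 in LbNOX livers, against 6272, 5075 and 6400 in luciferase livers (log2 difference -1.22, adjusted p = 0.0327). These groups did not overlap. Both comparisons of Mlxipl use the same luciferase ethanol libraries. In the difference of the ethanol effects 0 of the 18 passed by limma, so neither Mlxipl nor Foxa2 did, with 3 of the 18 at an unadjusted p under 0.05. Without M10 the call of Foxa2 was lost (adjusted p = 0.0507), and that of Mlxipl after ethanol was lost without M10, M11, M12, M13 or M15 (0.110, 0.0507, 0.105, 0.0756 and 0.151 in that order) and without M3, M8 and M15 (0.0751). Hnf4a, the receptor that maintains clotting factor genes in hepatocytes, did not pass (0.28, adjusted p = 0.321 for ethanol in luciferase livers). Of 23 acute phase and cytokine signalling genes, Saa3, a serum amyloid, passed after ethanol at 3177, 1289 and 1799 in LbNOX livers, against 297, 678 and 636 in luciferase livers (log2 difference 1.95, adjusted p = 0.0200). Its call was lost without M10, M13 or M15 (adjusted p of 0.0960, 0.0849 and 0.0611) and in a fit of only the groups compared (0.0538). In the difference of the ethanol effects 0 of these 23 genes passed by limma, with 2 at an unadjusted p under 0.05.

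Members differed in how tightly they were held within groups. The within-group SD on the log2 scale had a median of 0.31 over the complement members and 0.27 over the coagulation members, beside 0.31 over all genes. Cfb at 0.14, Cfi (factor I, which cleaves C3b) at 0.15 and C3 at 0.18 were tightest. Klkb1 at 0.77, Masp1 at 0.52 and C8a, a chain of the terminal component C8, at 0.50 varied most beside Proc. Klkb1 ran from 97.9 in M5 to 713 in M4 within luciferase water. These genes, and the C8 chains below, were chosen after their values were seen.

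**Figure D4:**
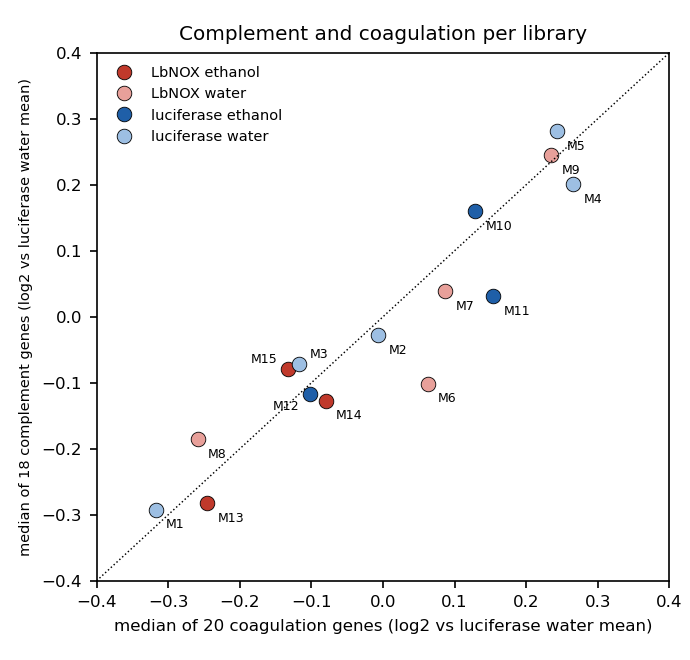
Each library placed by the median of 20 coagulation members (x axis) and of 18 complement members (y axis), as log2 difference from the luciferase water mean; the dotted line marks equal values. Libraries of all groups mix along the line, with luciferase water running from M1 at -0.32 and -0.29 to M5 at 0.24 and 0.28.

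The median of the complement members and that of the coagulation members moved together from library to library. The coagulation median, relative to the luciferase water mean, was -0.25 to -0.08 in LbNOX ethanol, -0.26 to 0.23 in LbNOX water, -0.10 to 0.15 in luciferase ethanol and -0.32 to 0.27 in luciferase water libraries. The complement median was -0.28 to -0.08 in LbNOX ethanol, -0.19 to 0.25 in LbNOX water, -0.12 to 0.16 in luciferase ethanol and -0.29 to 0.28 in luciferase water libraries. Complement minus coagulation stayed between -0.16 and 0.07 in every library, with a within-group SD of 0.07, against 0.17 for the complement median and 0.18 for the coagulation median. M13, M8, M12 and M1 were lowest of their groups in both medians. They were also lowest in summed hepatocyte markers (758227, 656188, 907388 and 828905). The highest library was shared by the sums and both medians in LbNOX water (M9) and not in the other groups. The part of cell content and scaling in this joint movement was not tested.

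Genes whose products form 1 complex, and neighbours on a chromosome, were then compared over the 15 libraries after subtraction of group means, with 100000 permutations within groups and Benjamini-Hochberg adjustment over 12 pairs. The fibrinogen chains varied together: Pearson's r was 0.98 for Fga and Fgb, 0.96 for Fga and Fgg and 0.98 for Fgb and Fgg (Spearman's rho 0.97, 0.95 and 0.98), each with a permutation adjusted p = 0.0002. Without M1 and M4, the libraries farthest out, r was 0.95, 0.92 and 0.97. The median over all 703 pairs of members was 0.44. The permutations set each r against 0 and not against this median. Whether the named pairs varied together more than other members was not tested. C8a and C8b, neighbours 11.1 kb apart on chromosome 4, had r of 0.91 (rho 0.86, permutation adjusted p = 0.00039), or 0.83 without M1 and M6. C8g, which encodes the remaining chain of C8 and lies on chromosome 2, had r of 0.08 with C8a (rho 0.19, permutation adjusted p = 0.874) and 0.05 with C8b (rho 0.06, adjusted p = 0.874). Without M3, M8 and M15 these became 0.66 and 0.62. F7 and F10 had r of 0.88 (rho 0.87, permutation adjusted p = 0.0031), or 0.83 without M8 and M9 and 0.80 without M3, M8 and M15. F11 and Klkb1, homologous proteases 4.66 kb apart on chromosome 8, ran in opposite directions at r of -0.57 (rho -0.46), which did not pass (permutation adjusted p = 0.189). C2 and Cfb, 0.085 kb apart on chromosome 17, had r of 0.57 (rho 0.49, permutation adjusted p = 0.132), C6 and C9 0.63 (rho 0.53, 0.0705), Mbl1 and Mbl2 0.47 (rho 0.55, 0.288) and Masp1 and Masp2 0.18 (rho 0.35, 0.731).

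**Figure D5:**
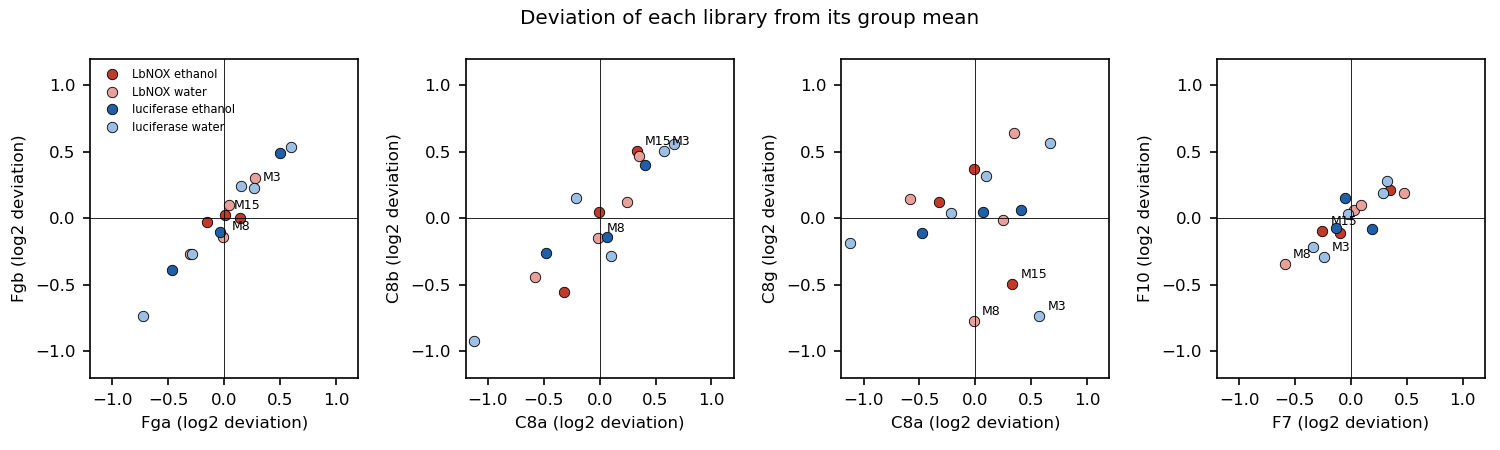
Deviation of each library from its group mean (log2) for pairs of members whose products act in 1 complex or whose genes are neighbours, with M3, M8 and M15 named. Fga with Fgb, C8a with C8b and F7 with F10 lie along a line (r of 0.98, 0.91 and 0.88), whereas C8g lies low in the 3 named libraries.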

How the data were processed

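RNA of mouse liver was made into libraries with the KAPA mRNA HyperPrep kit, according to the labels. The build mm10 is named in the submitters' processing notes, beside DESeq2 1.30.1 and Salmon 1.5.1, without the role of each. The values the authors deposited are a signal for each gene in each of 15 libraries, in steps of 1 size per library; how the authors scaled them is not given in the sources used here. Division by each library's smallest step gave whole reads for 100% of 244950 values (tolerance 0.001), and these reads gave the depths. Column names carry the group and a library name, with no replicate number.

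The main test was limma 3.58.1 in R 4.3.3, its variances moderated robustly along a trend with level, on log2(normalized count + 1). It covered the 13570 genes that reached 10 in 3 or more libraries. A joint fit of the 4 groups gave 5 contrasts, and p-values were adjusted by Benjamini-Hochberg over all genes tested, with a threshold of 0.05. On this scale the change of a low gene is understated. The reads were also tested with edgeR 4.0.16, which called 1049 genes for ethanol in luciferase livers, 1 for ethanol in LbNOX livers, 755 for LbNOX after ethanol, 0 for LbNOX after water and 220 for the difference, and with DESeq2 1.42.0. The fit was tried on simulated data. Replicates of a group differed beyond counting noise (chi-square per degree of freedom of 25.0 or more), so no library was counted as a copy. Gene models are from GENCODE vM21 and promoters from RefSeq, both on GRCm38, the assembly that mm10 also names.

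The members and lists were chosen with earlier results of these data known. Values per library are given for members called, for the smallest p of each role class in ethanol against water in luciferase livers, for the 3 smallest p of each comparison, and for called genes of the other lists, of which 1 is not reported here. F2, Masp2, Mbl1, Proc, Klkb1, Cd55, F5, Hnf4a, the C8 chains and the genes named for their level or spread were chosen after their values were seen. Alternatives were other scalings, tools, filters, pseudocounts and variance models, only the groups compared, each library left out, and M3 with M8 left out; the omission of M15 as well, and the counting of C1s as a member, were added after the data were seen.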

Additional observations from a re-analysis of the deposited data

Results flagged for a closer look

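A library far from the others of its group was looked for in 78 sets of 4 or 5 libraries, and 4 were found. The critical value of Dixon's gap ratio was used, which is set so that about 1 in 20 such sets is marked by chance. C4bp was 12703 normalized counts in luciferase water library M4, against 7336 to 8566 in the other libraries of that group. Cd55 was 239 in LbNOX water library M8, against 99.2 to 112 in the others. F13b, which encodes the carrier chain of factor XIII, was 2230 in the same library, against 2963 to 3096 in the others. Proc was 90.5 in luciferase water library M1, against 0 to 23.6 in the others. M8 is among the libraries that deviated together (M3, M8 and M15), and the part of this in the values of Cd55 and F13b was not tested.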

How the results depend on the processing

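No paired analysis was possible because the columns of the table carry no replicate numbers. For ethanol in luciferase livers 1 member, F7, was called with CPM scaling, edgeR, DESeq2, pseudocount 10, the filter at 100, only the groups compared, without M3 and M8, and without M3, M8 and M15; leaving out 1 library gave 0 to 1. For LbNOX after ethanol the count was 2 by DESeq2 and without M3 and M8 (F7 and Masp1), 0 with no trend and no robust variances and without M3, M8 and M15, and 0 to 1 with 1 library left out. For the difference of the ethanol effects it was 0 to 1 with 1 library left out, M8 being the library that gave 1. For ethanol in LbNOX livers and for LbNOX after water it was 0 under all 27 settings. Complement minus coagulation median of LbNOX after water ran from -0.10 to 0.0291 with 1 library left out. That of the difference was 0.13 after quantile normalization and 0.11 without M3 and M8. Over 29 settings, among them Vtn or C1s counted with complement, it ran from -0.16 to -0.08 for ethanol in luciferase livers. Over the same settings it ran from 0.06 to 0.17 for LbNOX after ethanol and from -0.05 to 0.04 for ethanol in LbNOX livers. Members are not replicates, so these medians were not tested. C1ra for ethanol in luciferase livers turned to -0.0476 with quantile normalization, -0.0381 with CPM scaling and -0.0514 both without M3 and M8 and without M3, M8 and M15, and ran from -0.0514 to 0.128 with 1 library left out; Fgg ran from -0.0250 to 0.48. The cause of these turns was not tested. F7 kept its direction in all settings: 0.66 to 0.84 for ethanol in luciferase livers and -1.13 to -0.81 for LbNOX after ethanol. CPM scaling moved the median of all genes by 0.14 for LbNOX after ethanol and by 0.17 for the difference; relative to that median F7 was -0.96 and -0.94. DESeq2 called 1621, 282, 1349, 18 and 633 genes over all for ethanol in luciferase, ethanol in LbNOX, LbNOX after ethanol, LbNOX after water and the difference, against 1052, 1, 822, 0 and 227 by limma. For ethanol in luciferase livers limma called 611 genes with only the groups compared, 446 without M10 and 623 without M12. For ethanol in LbNOX livers it called 142 without M3 and M8, 6 without M3, M8 and M15, 2 with only the groups compared, 0 with no trend, and 0 to 28 with 1 library left out. For LbNOX after ethanol it called 513 without M3, M8 and M15, and 299 to 944 with 1 library left out; for LbNOX after water 2 without M3 and M8, 1 without M3, M8 and M15, and 0 to 1. For the difference it called 118 with CPM scaling, 395 without M3 and M8, and 64 to 403 with 1 library left out. Groups of 3 to 5 libraries limit what could be called, and Proc, listed at 0 in 9 of 15 libraries, could not be compared.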
